A study of Homo sapiens with 63 samples.

Results

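COLO320DM cells exposed for 48 h to 10 µM Helicon 4 were compared with the same cells exposed for 48 h to 10 µM Helicon 4-neg, across all genes. The comparison was chosen by label: it holds the 3 libraries of each of these groups, 6 of the 63 libraries in the series. COLO320DM is an established human colorectal adenocarcinoma line, grown here in culture. The series title describes a helicon peptide directed at β-catenin/TCF. Helicon 4-neg is the second compound in the labels, and neither its structure nor that of Helicon 4 is given in the sources used here. The solvent DMSO at 48 h formed a further group of 3 libraries and stands beside the compounds where their levels are described. The other groups used were Helicon 4 and Helicon 4-neg at 1 and 3 µM for 48 h and at 10 µM for 6 and 24 h, each with 3 libraries. Polyadenylated RNA was sequenced from stranded libraries. The labels number the replicates 1 to 3, but do not say whether they were separate cultures, so p-values measure the spread between these libraries only.

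In the canonical Wnt pathway, secreted Wnt proteins bind Frizzled and LRP receptors and free β-catenin from a complex that otherwise marks it for destruction. β-Catenin then joins DNA-bound TCF/LEF proteins and switches on target genes. Several of these targets are themselves inhibitors of the pathway, so their messenger RNA is widely read as a gauge of β-catenin/TCF activity. In the intestinal epithelium the pathway maintains stem cells and their division, and most colorectal cancers carry mutations that keep it on.

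Between 18736880 and 25392592 reads per library lay behind the 6 columns of 13962 genes, and 1 read was worth 0.0379 to 0.0542 scaled CPM. Scaled CPM (CPM, the reads of a gene relative to the library's total, divided by a scaling factor of the library) is the unit of every level given here. Libraries stood apart by sets of marker genes that did not follow the compounds. Helicon 4 replicates 1 and 2 and Helicon 4-neg replicate 1 carried 6 markers of pluripotent stem cells, such as LIN28A and POU5F1, at a summed 19.7 to 26.2 scaled CPM, against 0.746 to 1.12 in the other 3 libraries. The same 3 libraries carried 7 cytokine and interferon-induced genes, such as CXCL10 and CXCL8, at a summed 62.2 to 79.8, against 0.488 to 0.799. Conversely, 5 astrocyte markers led by GFAP summed to 41.2 to 53.4 in Helicon 4 replicate 3 and Helicon 4-neg replicates 2 and 3, and to 5.12 to 8.44 in the other 3. Each set of libraries held members of both groups, and these marker lists were chosen after their values had been seen. With 1 term for each set in the 48 h fit, 120 genes were called higher and 106 lower for the pluripotent set and 1333 higher and 972 lower for the astrocyte set, of 13478 tested. Over all 63 libraries, taken in the order of their labels, the pluripotent and the astrocyte markers were each high and low in regular alternating runs. The cytokine genes were high where the astrocyte markers were low. The sets thus followed the order of the libraries. What produced these sets was not tested, and differences within each set of libraries are given beside a few of the genes described.

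**Figure D1:**
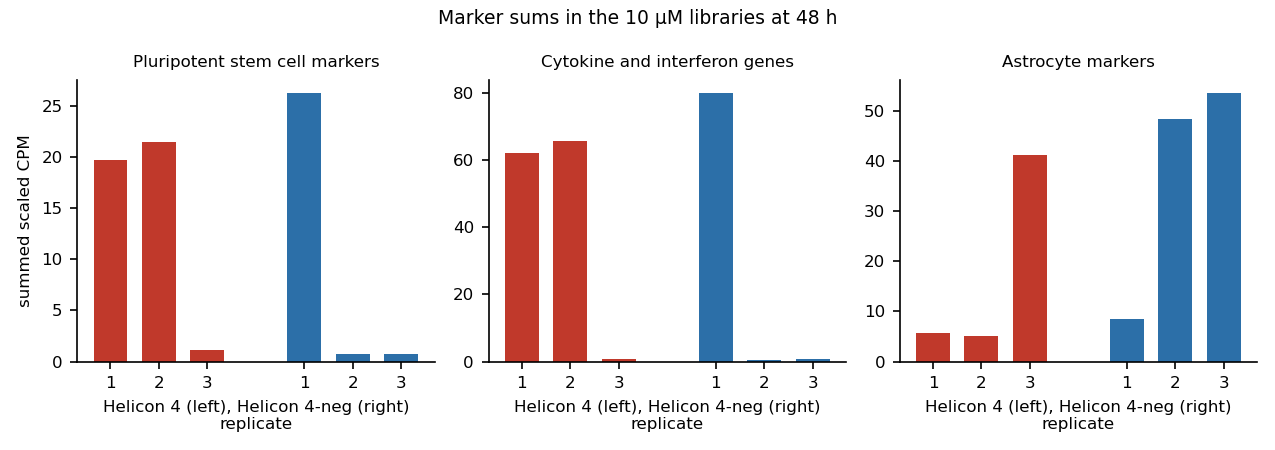
Summed scaled CPM of 6 pluripotent stem cell markers, 7 cytokine and interferon-induced genes and 5 astrocyte markers in each 10 µM library at 48 h, Helicon 4 in red (left) and Helicon 4-neg in blue (right), by replicate number. Helicon 4 replicates 1 and 2 and Helicon 4-neg replicate 1 are high for the pluripotent and the cytokine genes and low for the astrocyte markers.

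The epithelial identity of the line was visible in part. Of 12 epithelial markers 8 were in the table, and their summed level was 2789 to 2798 scaled CPM with Helicon 4, against 3765 to 3864 with Helicon 4-neg. Most of that sum was CDX2, the intestinal homeobox factor, which had 2314, 2321 and 2322 with Helicon 4, against 3569, 3473 and 3562 with Helicon 4-neg, a log2 fold change of -0.61 ± 0.042 (adjusted p = 2.23e-11). Of the 8 markers 3 rose and 1 fell (median 0.36), so the sum, which is mostly CDX2, and the median differ in sign. KRT8 and KRT18, the keratin pair of simple epithelia, rose by 0.83 and 0.43 log2. KRT19, a further keratin, had 0.535, 0.758 and 0.651 with Helicon 4, against 0.656, 0.108 and 0 with Helicon 4-neg (adjusted p = 0.0472), and its call was lost under 9 alternatives. The adhesion molecule EPCAM was low, with 4.16, 3.75 and 2.32 with Helicon 4, against 3.42, 2.06 and 1.92 with Helicon 4-neg, and its groups overlapped. EPCAM was not called (adjusted p = 0.0996), but passed without Helicon 4 replicate 3 or Helicon 4-neg replicate 1 (adjusted p = 0.0154 and 0.0160). Its higher values were those of the libraries with pluripotent markers. Each of these omissions left the libraries of that compound all within the same set, so compound and set cannot be told apart there. The epithelial cadherin CDH1, also on this list, followed the library sets too and is described below with the adhesion genes. Fibroblast markers (9 of 11 in the table) summed to 152 to 159 scaled CPM with Helicon 4 and 144 to 159.7 with Helicon 4-neg. Leukocyte markers (4 of 12 in the table) summed to 14.8 to 16.4 with Helicon 4 and 11.3 to 13.3 with Helicon 4-neg, and CD3D, CD14 and HLA-DRA had no row. Of the fibroblast markers 4 rose and 1 fell, and of the leukocyte markers 2 rose and 1 fell. COL3A1, a fibrillar collagen counted among the fibroblast markers, was nevertheless one of the larger rises, with 16.2, 20.3 and 16.5 with Helicon 4, against 2.58, 2.44 and 2.93 with Helicon 4-neg (log2 fold change 2.35 ± 0.14 SE, adjusted p = 2.59e-12). The part of other cells in any result below was not tested, and in bulk RNA fewer cells of a type and less RNA per cell cannot be told apart.

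The majority of measured genes differed between the compounds, most by less than 2-fold. Of 13478 genes tested with limma on log2(scaled CPM + 1), 3603 were higher and 3640 lower with Helicon 4 than with Helicon 4-neg at a Benjamini-Hochberg adjusted p below 0.05, which is 53.7% of genes, 26.7% higher and 27.0% lower. The median size of a called difference was 0.42 log2 units, and the median over all genes was 0.011. On the log2(scaled CPM + 1) scale, differences of at least 1 log2 unit (2-fold) were found for 504 higher genes (3.74%) and 200 lower genes (1.48%). On the same scale differences of at least 3 log2 units (8-fold) numbered 24 higher and 4 lower, and the 4 were WIF1, MEP1B, HDC and TNFRSF19. The first principal component of the 21 libraries at 48 h held 62.5% of their variance. With terms for the library sets, added after the data had been seen, 3738 genes were higher and 3761 lower. Because so large a share of all genes was called, the count of called members in a gene group is read below against 26.7% higher and 27.0% lower.

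**Figure D2:**
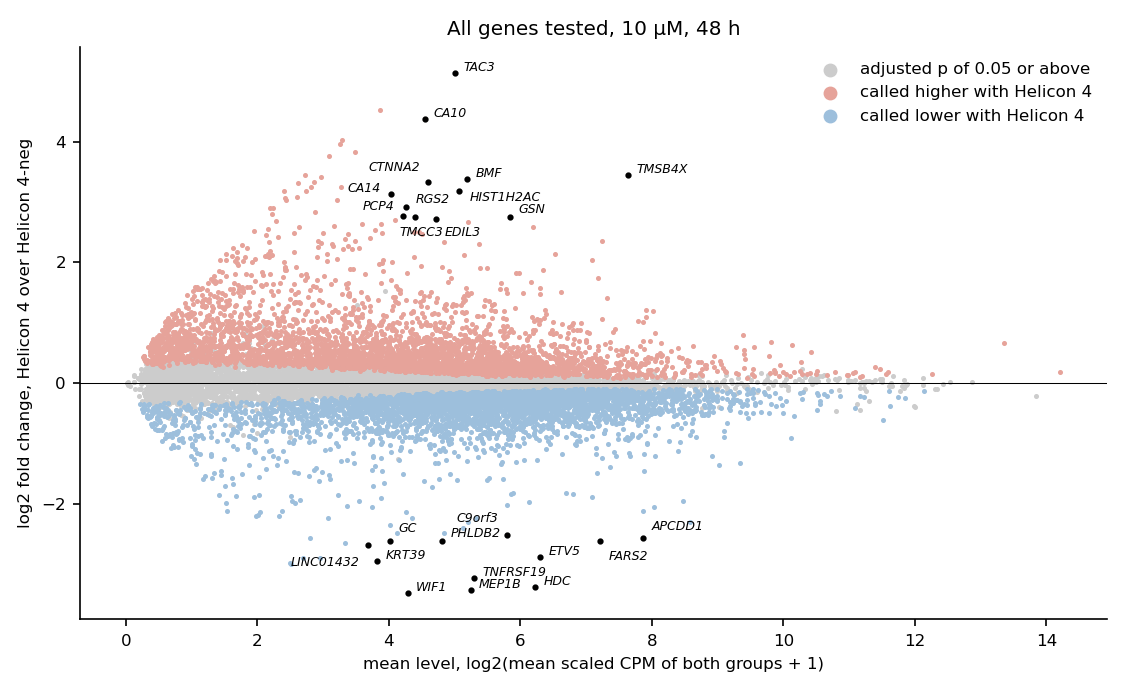
Log2 fold change of Helicon 4 over Helicon 4-neg (vertical) against mean level of both groups (horizontal, log2 of scaled CPM + 1) for the 13478 genes tested at 10 µM and 48 h, red where called higher, blue where called lower and grey otherwise. The 12 largest rises and 12 largest falls among genes of sufficient level are named, and the rises reach further (5.13 for TAC3) than the falls (-3.47 for WIF1).

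Genes that restrain Wnt signalling were mostly lower with Helicon 4. Of 16 feedback regulators tested out of 17 listed, 12 fell, 2 rose and 2 did not pass, and the median log2 fold change was -1.77, against 0.011 over all genes. The list was assembled with earlier results of these data known, so its direction is no independent evidence. Log2 fold changes are on the log2(scaled CPM + 1) scale, which understates those of low genes, and their errors are SE throughout. Values given as N-fold are ratios of the mean scaled CPM of the groups, with nothing added, and are therefore larger than the log2 fold changes imply where levels are low.

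Scaffolds and adaptors inside the cell were lower in every Helicon 4 library than in any Helicon 4-neg library. AXIN2 (ENSG00000168646, chromosome 17, 65528563 to 65561647, GRCh38), on which the proteins that degrade β-catenin assemble, had 50.2, 46.7 and 47.1 with Helicon 4, against 173, 173 and 172 with Helicon 4-neg, which is 3.60-fold lower (log2 fold change -1.83 ± 0.054, adjusted p = 4.63e-18). AXIN2 averaged 158 ± 11.1 with DMSO (SD, n = 3), and Helicon 4-neg was not called against DMSO (log2 difference 0.13, adjusted p = 0.0930). NKD1 and NKD2, which bind the adaptor Dishevelled, were lower too. NKD1 had 10.8, 11.5 and 9.86 with Helicon 4, against 38.6, 36.0 and 37.9 with Helicon 4-neg (3.50-fold lower, adjusted p = 1.07e-15). NKD2 had 4.62, 4.13 and 4.28 with Helicon 4, against 29.4, 24.1 and 24.8 with Helicon 4-neg (6.01-fold lower, adjusted p = 1.47e-15).

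The largest falls were among inhibitors that act outside the cell or at its surface. WIF1, a secreted protein that captures Wnts (ENSG00000156076, chromosome 12, 65050626 to 65121566), had 2.02, 1.97 and 2.697 with Helicon 4, against 33.1, 33.2 and 37.9 with Helicon 4-neg, a 15.6-fold difference (log2 fold change -3.47 ± 0.099, adjusted p = 3.03e-18). TNFRSF19, which belongs to the TNF receptors, had 6.84, 6.03 and 6.93 with Helicon 4, against 68.2, 74.4 and 66.9 with Helicon 4-neg (log2 fold change -3.22 ± 0.095, adjusted p = 4.70e-18). APCDD1, a membrane protein that blocks Wnt receptors (ENSG00000154856, chromosome 18, 10454628 to 10489948), had the smallest adjusted p of the group, 2.22e-23, with 66.0, 67.6 and 66.3 with Helicon 4, against 400.0, 396 and 403 with Helicon 4-neg. In these genes the 2 groups were separated by many times the spread between replicates. NOTUM, an enzyme that strips the lipid from Wnts, had 11.9, 10.8 and 11.7 with Helicon 4, against 60.6, 62.3 and 57.7 with Helicon 4-neg (5.24-fold lower). DKK1, which blocks the LRP co-receptors, had 0.306, 0.265 and 1.12 with Helicon 4, against 6.28, 5.64 and 5.06 with Helicon 4-neg, and its difference was -2.50 within the libraries carrying pluripotent markers and -1.58 within the others. Its relative DKK4 had no read in the Helicon 4 libraries and 0.188, 0.705 and 0.320 with Helicon 4-neg, from 23 reads in all. Against a floor of 3 reads per library DKK4 was at least 3.30-fold lower, and its call (adjusted p = 0.00497) was lost without Helicon 4-neg replicate 2 (adjusted p = 0.0539).

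The ubiquitin ligases that remove Frizzled from the surface also fell. RNF43 had 29.6, 28.8 and 31.3 with Helicon 4, against 64.9, 65.7 and 66.5 with Helicon 4-neg (2.20-fold lower, adjusted p = 1.20e-12), and ZNRF3 had 24.6, 25.5 and 21.3 with Helicon 4, against 38.7, 36.9 and 35.9 with Helicon 4-neg (1.56-fold lower, adjusted p = 2.03e-07). SP5, a zinc finger repressor switched on by β-catenin, had 1.45, 1.82 and 1.49 with Helicon 4, against 8.81, 10.1 and 7.94 with Helicon 4-neg (5.64-fold lower, adjusted p = 6.69e-12). KREMEN1, a receptor for Dickkopf proteins, and DKK3, a divergent Dickkopf, moved the other way, by 0.21 and 0.63 log2. DKK2, another Dickkopf, had 0.267, 0.417 and 0.418 with Helicon 4, against 0.141, 0.271 and 0.746 with Helicon 4-neg, and was not called (95% interval of the difference -0.30 to 0.31). SFRP1, a secreted Wnt-binding protein, had 5.54, 4.28 and 0.139 with Helicon 4, against 5.63, 0.0542 and 0.160 with Helicon 4-neg. Its high values were those of the 3 libraries with pluripotent markers, and its difference within the sets was -0.17 and 0.043. Over all 6 libraries it was 0.76 ± 0.57 (adjusted p = 0.277), and leaving out Helicon 4 replicate 3 or Helicon 4-neg replicate 1 gave 1.55 or 1.62 with an adjusted p of 0.0205 or 0.0109.

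**Figure D3:**
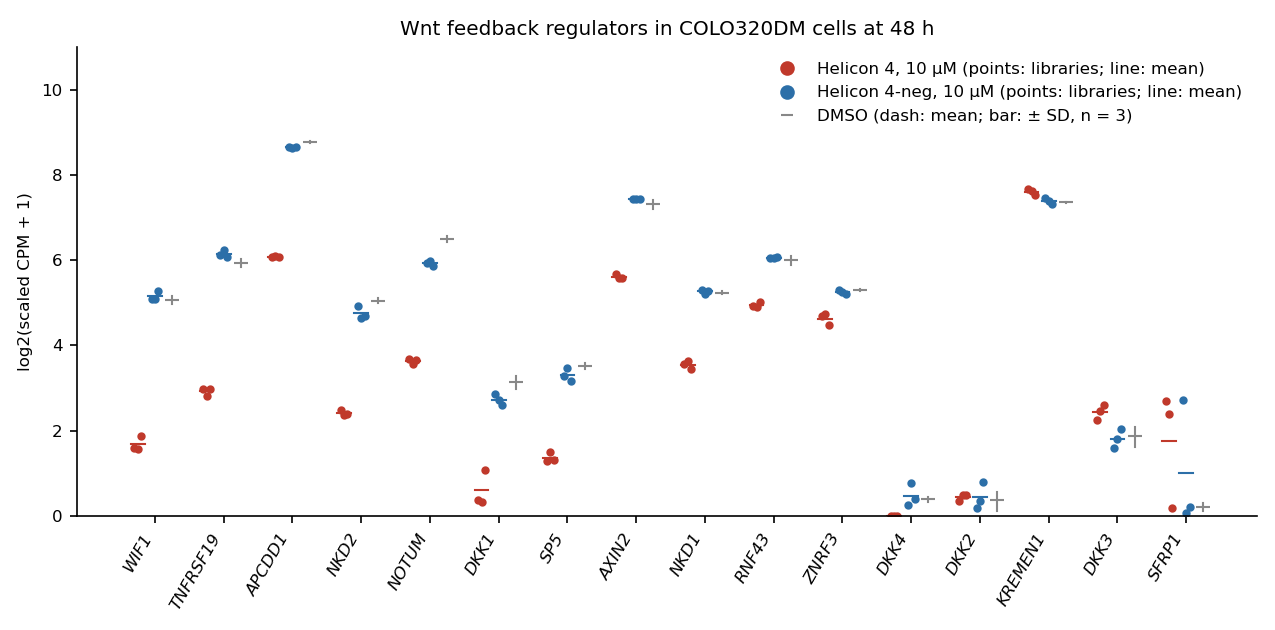
Levels of the 16 Wnt feedback regulators tested, as log2(scaled CPM + 1), in each library treated for 48 h with 10 µM Helicon 4 (red) or Helicon 4-neg (blue), lines marking means, and with DMSO as mean ± SD (grey, n = 3). In the 12 genes called lower all red points lie below all blue points, and in SFRP1 the points of both compounds are scattered.

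The 2 feedback genes whose upstream sequence held TCF/LEF letters are shown because they carry words that TCF proteins are known to bind. The words searched were CTTTG with AA, with AT, with TA or with TT after it, on both strands, in the 250 bases before each RefSeq gene start (build GRCh38.p14). They occurred in 2 of the 7 feedback regulators matched in the promoter table and in 12.1% of 27305 promoters. SP5 (chr2:170715087-170715336, plus strand) held 3 matches and DKK1 (chr10:52314031-52314280, plus strand) held 2, marked in capitals 5′ to 3′ on the gene's strand, where a word on the opposite strand appears as its complement read backwards. A match is a description of letters and not of binding.
SP5: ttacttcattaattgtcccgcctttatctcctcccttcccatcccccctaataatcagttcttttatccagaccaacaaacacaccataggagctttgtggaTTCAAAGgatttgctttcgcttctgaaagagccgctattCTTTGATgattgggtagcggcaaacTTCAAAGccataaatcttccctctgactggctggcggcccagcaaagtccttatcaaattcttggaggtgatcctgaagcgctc
DKK1: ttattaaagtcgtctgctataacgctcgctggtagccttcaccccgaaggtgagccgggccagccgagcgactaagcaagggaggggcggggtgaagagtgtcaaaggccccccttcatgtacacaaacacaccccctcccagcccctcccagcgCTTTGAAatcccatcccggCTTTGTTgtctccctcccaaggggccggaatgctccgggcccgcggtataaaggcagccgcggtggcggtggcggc

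The remaining parts of the pathway moved in both directions. Among the DNA-bound partners, TCF7 had 7.53, 6.37 and 6.97 with Helicon 4, against 22.8, 18.4 and 21.0 with Helicon 4-neg (log2 fold change -1.45 ± 0.11, adjusted p = 1.17e-10). LEF1 had 53.4, 51.4 and 52.5 with Helicon 4, against 114, 113 and 110.2 with Helicon 4-neg (log2 fold change -1.09 ± 0.077, adjusted p = 3.39e-11). TCF7L2, the main TCF of intestinal epithelium, was instead higher, with 19.2, 17.0 and 15.4 with Helicon 4, against 13.0, 11.9 and 13.4 with Helicon 4-neg (adjusted p = 0.00572). TCF7L1, a repressive TCF, had 0.420, 0.682 and 0.0930 with Helicon 4, against 0.703, 0.0542 and 0.107 with Helicon 4-neg, and was not called. Its higher values were those of the 3 libraries with pluripotent markers, and its difference was -0.14 within these and 0.017 within the others. The repressor HBP1 rose by 1.31 and the Groucho-type co-repressor TLE2 by 0.87 log2. Of the 10 genes in this list 5 rose and 2 fell.

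CTNNB1, which encodes β-catenin itself (ENSG00000168036, chromosome 3, 41194741 to 41260096), had 489.6, 492 and 500.4 with Helicon 4, against 388, 408 and 406 with Helicon 4-neg, a rise of 0.30 ± 0.055 log2 (adjusted p = 5.91e-05). Of 16 genes for β-catenin, the destruction complex and nuclear cofactors 7 rose and 2 fell (median 0.15). APC and CSNK1A1, parts of that complex, each rose by 0.55, and DVL1, a Dishevelled, fell by 0.30. The call of CSNK1A1 was lost without replicate 1 of Helicon 4 or of Helicon 4-neg (adjusted p = 0.0518 and 0.0536). Without Helicon 4 replicate 1 only 4 of these genes rose. Among 14 receptors and transport genes tested of 15, 6 rose and 5 fell. LGR4, a receptor for R-spondins, had 61.6, 61.0 and 59.8 with Helicon 4, against 24.3, 22.8 and 26.6 with Helicon 4-neg (2.47-fold higher, adjusted p = 7.95e-12). The Frizzled receptor FZD8 had 7.41, 9.36 and 6.65 with Helicon 4, against 23.3, 17.2 and 18.6 with Helicon 4-neg (2.52-fold lower), and FZD10 had 0.306, 0.114 and 0.279 with Helicon 4, against 3.19, 1.73 and 3.30 with Helicon 4-neg (11.8-fold lower). FZD7 went the other way, with 20.9, 23.2 and 20.8 with Helicon 4, against 15.2, 10.3 and 11.4 with Helicon 4-neg. Receptor genes of one family thus differed in direction between the compounds.

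Other genes reported as Wnt targets were also split, 9 higher and 5 lower of 20 tested (median 0.24). ASCL2, a stem cell transcription factor, had 10.5, 10.3 and 10.4 with Helicon 4, against 35.3, 36.1 and 30.2 with Helicon 4-neg (log2 fold change -1.61 ± 0.11, adjusted p = 1.96e-11). CCND1, the cell cycle cyclin D1, had 16.3, 16.2 and 14.3 with Helicon 4, against 28.97, 25.5 and 28.7 with Helicon 4-neg (log2 fold change -0.79 ± 0.10, adjusted p = 7.09e-07). RGMB, a BMP co-receptor, fell by 1.20 and the receptor tyrosine kinase MET by 0.70. LGR5, the stem cell receptor, had 5.23, 5.19 and 4.46 with Helicon 4, against 6.19, 5.69 and 6.77 with Helicon 4-neg. Its 3 Helicon 4 values lay below the 3 Helicon 4-neg values, but its difference of -0.27 (95% interval -0.52 to -0.028) did not pass (adjusted p = 0.0562). It passed in 6 alternatives, among them the fit with library set terms (adjusted p = 0.0349). With those terms, or with the 6 libraries alone, 8 rather than 5 of these 20 targets were lower.

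Several targets were higher with Helicon 4. ISX, an intestinal homeobox factor, had 14.6, 15.0 and 14.7 with Helicon 4, against 0.0938, 0.380 and 0.0533 with Helicon 4-neg (log2 fold change 3.76 ± 0.12, adjusted p = 2.94e-17). EPHB3, a receptor for ephrin-B ligands, had 39.1, 38.2 and 34.6 with Helicon 4, against 5.16, 6.56 and 6.18 with Helicon 4-neg (log2 fold change 2.46 ± 0.098, adjusted p = 9.01e-16). The transcription factors SOX4 and ID2 rose by 1.41 and 1.54. MYC (ENSG00000136997, chromosome 8, 127735434 to 127741434) had 3369, 3276 and 3194 with Helicon 4, against 2874, 2845 and 2924 with Helicon 4-neg, a rise of 0.19 ± 0.051 (adjusted p = 0.00352). At 3 and 1 µM the MYC difference was -0.044 and -0.18, and at 10 µM for 6 and 24 h it was -0.27 and -0.15. MYC was called lower at 1 µM (adjusted p = 0.00687), at 6 h (adjusted p = 8.08e-05) and at 24 h (adjusted p = 0.00825). The change of its difference at 10 µM was called from 6 to 48 h (0.46, adjusted p = 3.30e-07) and from 24 to 48 h (0.34, adjusted p = 0.000373). The 3 µM value was not called (adjusted p = 0.491), nor was the change from 3 to 10 µM (0.23, adjusted p = 0.154). In the MYC network 4 of 12 genes rose and 3 fell. MXD4 and MXI1, which compete with MYC for MAX, rose by 1.20 and 1.01, and MYCN had 5.08, 4.74 and 4.05 with Helicon 4, against 12.8, 12.1 and 13.3 with Helicon 4-neg (2.76-fold lower).

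The largest rises among genes with a mean log2(scaled CPM + 1) of at least 3 were in genes outside the Wnt lists. TAC3, the precursor of the neuropeptide neurokinin B (ENSG00000166863, chromosome 12, 57010000 to 57028883), had 62.7, 57.5 and 63.7 with Helicon 4, against 0.422, 0.759 and 1.23 with Helicon 4-neg, a 76.4-fold difference (log2 fold change 5.13 ± 0.16, adjusted p = 1.70e-17). CA10, a carbonic anhydrase-related protein (ENSG00000154975, chromosome 17, 51630313 to 52160017), had 46.7, 40.3 and 44.1 with Helicon 4, against 0.938, 1.03 and 1.55 with Helicon 4-neg (37.3-fold). With DMSO these genes averaged 0.841 and 0.911. CTNNA2, the neuronal α-catenin, had 40.8, 43.3 and 45.5 with Helicon 4, against 3.14, 3.25 and 3.78 with Helicon 4-neg (12.7-fold). CA14, a membrane-bound carbonic anhydrase, had 28.1, 28.5 and 28.3 with Helicon 4, against 2.39, 2.17 and 2.50 with Helicon 4-neg (12.0-fold). RGS2, which shortens G protein signals, had 31.7, 32.8 and 33.7 with Helicon 4, against 3.23, 3.31 and 3.89 with Helicon 4-neg (9.41-fold). PCP4, a calmodulin-binding peptide, TMCC3, a membrane protein, and EDIL3, an integrin-binding matrix protein, rose by 2.77, 2.75 and 2.71 log2. In each of them the 3 Helicon 4 values lay above the 3 Helicon 4-neg values, as the choice of these genes required.

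Genes of the actin skeleton and of cell death stood among these rises. TMSB4X, which encodes the actin-sequestering peptide thymosin β4 (ENSG00000205542, chromosome X, 12975108 to 12977227), had 357, 379 and 357 with Helicon 4, against 43.4, 25.5 and 30.6 with Helicon 4-neg (log2 fold change 3.45 ± 0.13, adjusted p = 1.61e-16). Its difference was 3.05 within the libraries carrying pluripotent markers and 3.63 within the others. GSN, the filament-severing protein gelsolin, had 96.0, 102 and 98.0 with Helicon 4, against 14.0, 13.3 and 14.1 with Helicon 4-neg (7.17-fold, adjusted p = 1.09e-19). Of 25 actin and thymosin genes tested 10 rose and 5 fell, the falls including ACTB by 0.35 and TPM4 by 0.48, so the list as a whole did not move one way. BMF, a BH3-only protein that opposes BCL2 (ENSG00000104081, chromosome 15, 40087890 to 40108892), had 65.5, 66.8 and 64.8 with Helicon 4, against 5.20, 5.53 and 5.49 with Helicon 4-neg (12.1-fold, adjusted p = 9.85e-19). Of 17 BCL2 family genes tested 9 rose and 3 fell (median 0.35). The death-promoting BCL2L11 and BBC3 rose by 0.66 and 0.82, the death-opposing BCL2L1 by 0.70, and the death-promoting PMAIP1 fell by 0.51.

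Apart from the Wnt regulators, the largest falls among genes with a mean log2(scaled CPM + 1) of at least 3 were in genes of varied function. MEP1B, the β subunit of the brush border protease meprin (ENSG00000141434, chromosome 18, 32185069 to 32220404), had 5.04, 4.97 and 6.37 with Helicon 4, against 63.9, 73.0 and 68.0 with Helicon 4-neg (12.5-fold lower, adjusted p = 1.61e-17). HDC (ENSG00000140287, chromosome 15, 50241947 to 50266026), histidine decarboxylase, had 11.5, 11.3 and 13.9 with Helicon 4, against 131, 137 and 138 with Helicon 4-neg (11.0-fold lower, adjusted p = 3.05e-22). KRT39, a keratin, had 2.41, 2.24 and 2.09 with Helicon 4, against 24.6, 23.3 and 24.1 with Helicon 4-neg (10.7-fold lower). ETV5, an ETS factor often used as a readout of MAPK signalling, had 19.1, 16.9 and 17.8 with Helicon 4, against 137, 137 and 138 with Helicon 4-neg (log2 fold change -2.87 ± 0.056, adjusted p = 2.00e-21). FARS2, the mitochondrial phenylalanyl-tRNA synthetase, had 37.8, 40.8 and 44.1 with Helicon 4, against 245, 258 and 258 with Helicon 4-neg (6.21-fold lower). GC, the vitamin D-binding protein, PHLDB2, a protein of the cell cortex, the noncoding RNA LINC01432 and C9orf3, which encodes an aminopeptidase, fell by 2.61, 2.61, 2.68 and 2.51 log2. Groups that do not overlap were a condition for naming a gene among these rises and falls, and 62.8% of all genes tested met it.

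Genes of growth and division were lower across whole lists. DNA replication genes fell in 33 of 33 (median -0.71, range -1.07 to -0.24), and mitosis genes in 33 of 34 (median -0.61), where 27.0% of all genes fell. MCM3, a subunit of the replicative helicase, had 142, 137 and 143 with Helicon 4, against 263, 267 and 261 with Helicon 4-neg (1.88-fold lower, adjusted p = 8.75e-16). PCNA, the sliding clamp, had 263, 269 and 281 with Helicon 4, against 492, 503 and 479 with Helicon 4-neg (1.81-fold lower). CDC45, a helicase partner, had 32.5, 33.0 and 34.8 with Helicon 4, against 71.3, 75.04 and 68.3 with Helicon 4-neg (2.14-fold lower). The spindle factor TPX2 had 171, 172 and 178 with Helicon 4, against 298, 310.3 and 298 with Helicon 4-neg (1.74-fold lower, adjusted p = 2.12e-14), and its partner kinase AURKA had 88.4, 88.6 and 87.9 with Helicon 4, against 143, 151 and 146 with Helicon 4-neg. The motor KIF11 and the cyclin CCNB2 fell by 0.74 and 0.63 log2. The groups did not overlap in 33 of 33 replication and 34 of 34 mitosis genes, against 62.8% of all genes.

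Replication and mitosis genes with recognisable promoter words are shown for the 2 members of each list with the smallest p among those holding a word. The words were chosen after the values had been seen. The E2F words TTTGGCGC, TTTCGCGC, TTTCCCGC and TTTGCCGC occurred in 12 of the 29 replication promoters matched (of 33) and in 2.79% of all 27305. The word TTTGAA, known as the cell cycle homology region or CHR and contained in the TCF word CTTTGAA, occurred in 17 of the 30 mitosis promoters matched (of 34) and in 13.6% of all. CCAAT occurred in 23 of the 30, in 16 of the 29 replication promoters, in 15 of the 18 cholesterol synthesis promoters matched and in 33.0% of all. The windows are the 250 bases before the start, read 5′ to 3′ on the gene's strand with E2F words (MCM3, chr6:52284743-52284992, minus strand; PCNA, chr20:5126623-5126872, minus strand) or the CHR (KIF11, chr10:92592880-92593129, plus strand; CCNB2, chr15:59104896-59105145, plus strand) in capitals.
MCM3: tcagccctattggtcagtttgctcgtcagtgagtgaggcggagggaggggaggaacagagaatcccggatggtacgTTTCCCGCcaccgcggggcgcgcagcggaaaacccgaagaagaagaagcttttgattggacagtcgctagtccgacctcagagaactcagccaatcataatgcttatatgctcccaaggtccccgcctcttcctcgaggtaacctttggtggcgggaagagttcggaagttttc
PCNA: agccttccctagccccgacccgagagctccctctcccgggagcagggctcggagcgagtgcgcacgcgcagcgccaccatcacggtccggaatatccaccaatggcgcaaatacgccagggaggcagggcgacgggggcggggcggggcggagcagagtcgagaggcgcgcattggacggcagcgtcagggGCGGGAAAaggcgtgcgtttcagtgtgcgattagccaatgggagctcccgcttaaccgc
KIF11: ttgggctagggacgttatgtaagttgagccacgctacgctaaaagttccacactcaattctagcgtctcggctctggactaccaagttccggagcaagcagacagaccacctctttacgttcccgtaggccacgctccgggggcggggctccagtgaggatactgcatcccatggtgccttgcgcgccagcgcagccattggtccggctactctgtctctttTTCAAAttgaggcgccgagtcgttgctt
CCNB2: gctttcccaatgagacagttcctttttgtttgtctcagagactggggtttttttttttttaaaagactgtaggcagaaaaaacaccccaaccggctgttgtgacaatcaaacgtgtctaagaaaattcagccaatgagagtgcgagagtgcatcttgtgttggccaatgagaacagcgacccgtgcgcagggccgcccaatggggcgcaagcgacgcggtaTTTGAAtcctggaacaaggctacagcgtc

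Around these lists the regulators of the G1 phase moved apart. Of 27 genes for G1 cyclins, CDK inhibitors and RB/E2F proteins 15 fell and 5 rose. E2F1, an activator of S-phase genes, had 38.1, 41.6 and 37.2 with Helicon 4, against 74.9, 69.8 and 72.7 with Helicon 4-neg (1.86-fold lower), and CCND2, cyclin D2, had 98.1, 86.5 and 86.5 with Helicon 4, against 240.2, 243 and 231 with Helicon 4-neg (2.63-fold lower). CDKN1C, the inhibitor p57, had 25.4, 27.8 and 23.7 with Helicon 4, against 9.61, 6.94 and 9.00 with Helicon 4-neg (3.01-fold higher, adjusted p = 1.81e-11). CDKN1B, the inhibitor p27, rose by 0.33 log2. CDKN1A, the inhibitor p21 and a main p53 target, had 2.25, 2.62 and 1.77 with Helicon 4, against 1.64, 1.95 and 2.72 with Helicon 4-neg, with overlapping groups and a difference whose 95% interval ran from -0.26 to 0.37. Of 21 p53 targets tested 7 rose and 2 fell (median 0.06), and 4 fell with median centring. Nucleotide and folate synthesis genes fell in 24 of 25 (median -0.48), led by RRM2, a ribonucleotide reductase subunit, with 103, 106 and 108 with Helicon 4, against 229, 242 and 235 with Helicon 4-neg (2.22-fold lower, adjusted p = 1.84e-17). Ribosome biogenesis genes fell in 30 of 32 (median -0.34), with NOLC1, a nucleolar protein, at 145, 145 and 144 with Helicon 4, against 202, 206 and 203 with Helicon 4-neg. Ribosomal protein genes, by contrast, ran from -0.10 to 0.17, and 5 of 30 were called, all higher. That count was 1 with median centring, without Helicon 4 replicate 3 or without Helicon 4-neg replicate 1, and 2 without replicate 2 of either compound. Processed copies of ribosomal protein genes could have shared reads with them.

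Quiescence-associated genes were higher in most of their list. Of 23 FOXO and quiescence genes 19 rose and 1 fell (median 0.64). CCNG2, an unconventional cyclin induced by FOXO factors, had 148, 152 and 149 with Helicon 4, against 30.1, 32.6 and 37.3 with Helicon 4-neg (4.50-fold, adjusted p = 3.99e-19). TP53INP2, an autophagy protein, had 281, 238 and 240.1 with Helicon 4, against 54.4, 46.1 and 45.9 with Helicon 4-neg (5.19-fold). SESN3, a sestrin that restrains growth signalling, had 64.4, 65.8 and 64.4 with Helicon 4, against 15.4, 15.7 and 18.8 with Helicon 4-neg (3.90-fold). PIK3IP1, a PI3-kinase inhibitor, and TXNIP, which limits glucose uptake, rose by 1.90 and 1.21. The member that fell was IRS2, an insulin receptor adaptor, with 14.4, 12.3 and 13.5 with Helicon 4, against 27.7, 26.0 and 26.8 with Helicon 4-neg.

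Histone transcripts caught by polyadenylation selection rose in 16 of 19 tested (median 1.34). HIST1H2AC, an H2A gene, had 54.9, 60.2 and 63.01 with Helicon 4, against 5.86, 5.10 and 5.97 with Helicon 4-neg (10.5-fold, adjusted p = 1.07e-17). The linker histone gene HIST1H1C had 36.3, 35.4 and 37.9 with Helicon 4, against 5.25, 5.48 and 6.29 with Helicon 4-neg (6.44-fold), and HIST2H2BE, an H2B gene, had 44.9, 42.9 and 42.6 with Helicon 4, against 11.6, 10.2 and 10.5 with Helicon 4-neg (4.03-fold). Most histone messages end in a stem-loop and not a poly(A) tail, so these values describe only the tailed fraction. Near-identical copies of these genes could have shared reads, which leaves the split between single genes uncertain.

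Autophagy and lysosome genes leaned upward. Of 22 autophagy receptor and LC3 family genes 14 rose and 2 fell (median 0.36), OPTN and SQSTM1 among them. OPTN, an autophagy receptor, had 20.7, 19.3 and 18.6 with Helicon 4, against 8.25, 6.29 and 6.34 with Helicon 4-neg. SQSTM1, the receptor p62, had 70.1, 70.6 and 64.6 with Helicon 4, against 38.0, 35.7 and 39.4 with Helicon 4-neg. Of 30 lysosome and V-ATPase genes 16 rose and 5 fell (median 0.17). ATP6V1A, a proton pump subunit, had 324, 318 and 343 with Helicon 4, against 154, 154 and 153 with Helicon 4-neg (2.14-fold), and the sialidase NEU1 had 127, 129.6 and 135 with Helicon 4, against 63.9, 64.4 and 68.6 with Helicon 4-neg (1.99-fold). TFEB, a transcription factor of lysosomal genes, rose by 0.87. In the heat shock list there were 10 rises and 4 falls among 19 genes (median 0.22), with the small chaperone HSPB1 at 212, 205 and 193 with Helicon 4, against 100.4, 95.7 and 95.3 with Helicon 4-neg (2.09-fold).

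Sterol and secretory pathway genes were lower. Cholesterol synthesis and uptake genes fell in 22 of 25 (median -0.83). ACAT2, a thiolase at the head of the pathway, had 86.6, 87.9 and 91.4 with Helicon 4, against 201, 219 and 214 with Helicon 4-neg (2.38-fold lower, adjusted p = 3.33e-17), and DHCR7, its last reductase, had 128, 124 and 118 with Helicon 4, against 286, 277 and 269 with Helicon 4-neg (2.25-fold lower). Helicon 4-neg itself was above DMSO in 17 of these 25 genes (median 0.22), where 10.4% of all genes were above. Helicon 4 was below DMSO in 22 of them, where 28.7% of all genes were below. The unfolded protein response list held 17 falls and 1 rise among 22 genes (median -0.44). XBP1, a transcription factor of that response, had 158, 156 and 161 with Helicon 4, against 361, 370.2 and 369 with Helicon 4-neg (2.32-fold lower, adjusted p = 4.22e-16), and the chaperone HSPA5 fell by 0.50. Targets of the amino acid stress factor ATF4 fell in 17 of 26 and rose in 5. SLC7A5, an amino acid transporter, and ASNS, asparagine synthetase, fell by 0.75 and 0.71. DDIT4, an inhibitor of mTORC1, had 131, 127 and 121 with Helicon 4, against 35.6, 29.6 and 36.9 with Helicon 4-neg (3.71-fold higher), and NUPR1, a stress-induced nuclear protein, rose by 1.64.

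Adhesion genes changed in both directions and some by large amounts. Of 22 cadherin and catenin junction genes 10 rose and 4 fell. JUP, the catenin plakoglobin, a close relative of β-catenin, had 133, 128 and 113 with Helicon 4, against 23.1, 18.5 and 18.8 with Helicon 4-neg (log2 fold change 2.58 ± 0.092, adjusted p = 1.09e-16). CLDN4, a tight junction claudin, had 5.12, 3.68 and 3.95 with Helicon 4, against 0.188, 0.163 and 0.373 with Helicon 4-neg (log2 fold change 2.07 ± 0.14). PKP4, a plakophilin, had 58.9, 54.3 and 59.3 with Helicon 4, against 217, 212 and 212 with Helicon 4-neg (3.72-fold lower, adjusted p = 5.05e-19). CDH1, the epithelial cadherin, was not called (difference 0.37, 95% interval -0.37 to 1.10), and its levels of 1.57, 1.59 and 0 with Helicon 4, against 2.11, 0 and 0 with Helicon 4-neg followed the library sets. Within the libraries carrying pluripotent markers the CDH1 difference was -0.27, and the other 3 libraries were all at 0. CDH1 passed without Helicon 4 replicate 3 or Helicon 4-neg replicate 1.

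Genes read as outputs of other signalling pathways were also compared. BMP pathway and ID genes rose in 9 of 16 and fell in 4. Helicon 4-neg itself was below DMSO in 6 of these 16 genes and above it in 0 (median -0.19), where 8.55% of all genes were below. Helicon 4 was above DMSO in 7 of them and below it in 4, where 31.1% of all genes were above and 28.7% below. ID3, a dominant-negative helix-loop-helix factor induced by BMP, had 78.9, 80.2 and 75.4 with Helicon 4, against 23.7, 22.9 and 25.8 with Helicon 4-neg (3.24-fold, adjusted p = 1.32e-17), and ID1 had 3.90, 4.36 and 3.63 with Helicon 4, against 1.27, 1.25 and 0.852 with Helicon 4-neg. With DMSO these genes averaged 54.2 ± 2.67 and 3.30 ± 0.81 (SD, n = 3), between the 2 compounds. Against DMSO, ID3 was called higher with Helicon 4 (0.52, adjusted p = 1.10e-08) and ID1 was not called (0.22, adjusted p = 0.218). SMAD7, a pathway inhibitor, rose by 1.22, and BAMBI, a decoy receptor that is also a Wnt target, fell by 1.11. MAPK feedback genes fell in 8 of 18 and rose in 5, with ETV5 falling most, the phosphatase DUSP6 falling by 0.79 and PHLDA1 rising by 1.14. Notch pathway genes fell in 5 of 13 tested and rose in 1, with the ligand JAG1 and the target HEY1 lower by 0.70 and 0.86 log2. No Notch gene rose without Helicon 4 replicate 1 or Helicon 4-neg replicate 3, and 2 rose without Helicon 4 replicate 3 or Helicon 4-neg replicate 1.

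Markers of differentiation gave no single direction. Of 30 intestinal differentiation genes 10 were in the table, 3 of which rose and 5 fell. FABP2, an intestinal fatty acid-binding protein, had 0.611, 0.493 and 0.465 with Helicon 4, against 9.09, 11.2 and 10.8 with Helicon 4-neg (19.8-fold lower, adjusted p = 1.73e-16). HNF4A, a hepatocyte and enterocyte transcription factor, had 0.917, 1.10 and 1.12 with Helicon 4, from 77 reads, and no read in the Helicon 4-neg libraries. Against 3 reads per library HNF4A was at least 6.76-fold higher. KRT20, a keratin of mature colonocytes, had 2.60, 2.88 and 2.88 with Helicon 4, against 1.41, 1.84 and 1.65 with Helicon 4-neg (adjusted p = 0.0196), and its call was lost without Helicon 4 replicate 2 or 3 or Helicon 4-neg replicate 1 (adjusted p = 0.0529, 0.0509 and 0.0703). Of 14 neuroendocrine genes tested 3 rose and 2 fell, where 26.7% of all genes rose and 27.0% fell. HDC, described above, is on this list and fell most, by 3.37 log2. ENO2, the neuronal enolase, had 28.003, 25.5 and 25.6 with Helicon 4, against 12.3, 11.9 and 13.2 with Helicon 4-neg (2.11-fold), and the secretory granule protein CHGA did not pass (difference -0.073, 95% interval -0.44 to 0.29).

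**Figure D4:**
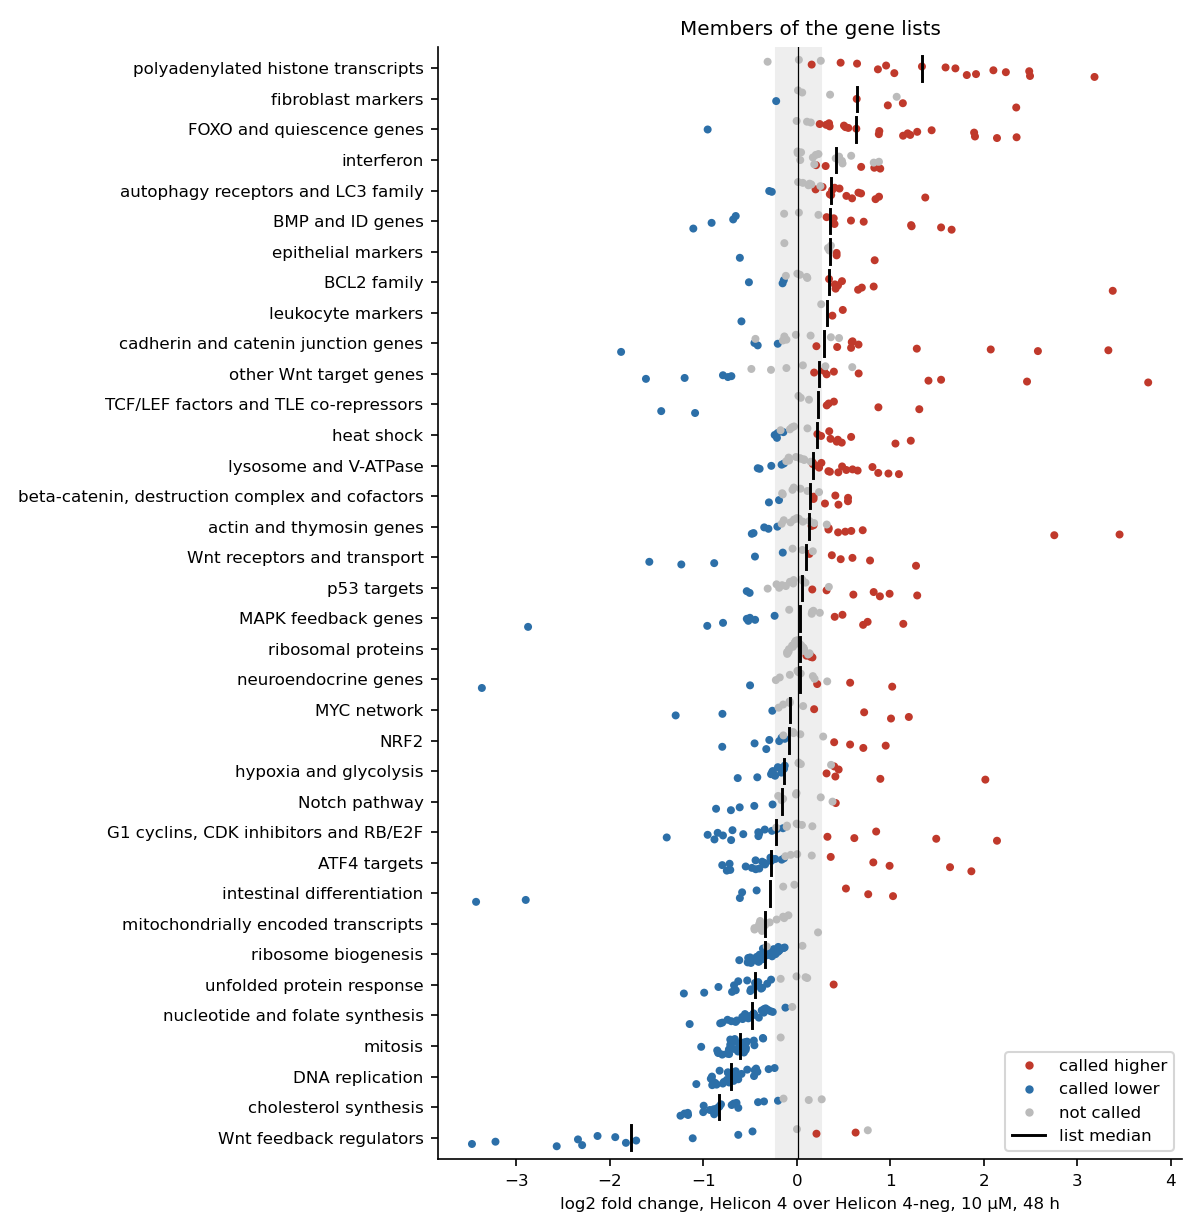
Log2 fold change of Helicon 4 over Helicon 4-neg at 10 µM and 48 h for each tested member of the 36 gene lists (points, red called higher, blue called lower, grey not called), with each list's median as a black bar and the lists in order of median. The grey band is the interquartile range of all 13478 genes, -0.22 to 0.26, and the thin line their median, and the Wnt feedback regulators and the polyadenylated histone transcripts have the medians furthest from it, -1.77 and 1.34.

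Lists of metabolic and immune genes completed the comparison. Among 23 genes of hypoxia and glycolysis 13 fell and 6 rose (median -0.13), with the growth suppressor NDRG1 rising by 2.02 and hexokinase HK2 falling by 0.63. Among 16 NRF2 targets 4 rose and 7 fell. Interferon genes were called higher in 5 of 21 (median 0.42), near the share of 26.7% over all genes. In 5 of the 21 the groups did not overlap, against 62.8% of all genes. At 3 and 1 µM the median of the list was 0.092 and -0.045. IRF1, which was among those called, had 7.41, 6.97 and 6.56 with Helicon 4, against 4.97, 2.60 and 3.197 with Helicon 4-neg. Its difference was 0.46 within the libraries carrying cytokine genes and 0.96 within the others. With the library sets modelled, or without Helicon 4-neg replicate 1, 8 members of the list rose. Of the 13 messages encoded by mitochondrial DNA, 12 had a negative difference (median -0.34). In 11 of the 13 the groups did not overlap, against 62.8% of all genes. All mitochondrially encoded genes together held 5.45, 4.72 and 5.07% of the signal with Helicon 4, against 5.10, 5.12 and 4.96% with Helicon 4-neg. These shares overlapped. None of the 13 messages was called by limma in the 21 libraries, nor had any an unadjusted p below 0.05. On the recovered reads edgeR and DESeq2 called none. The spread in that fit included 2 libraries of other groups whose mitochondrial share was 2.30 and 2.44%, against 4.41 to 5.83% in the other 19. Without those 2 libraries, left out after the data had been seen, 10 of the 13 were called lower and 1, MT-ND3, higher. Over all 13478 genes that fit called 3925 lower and 3830 higher.

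Against DMSO the compounds differed in reach. With Helicon 4, 4196 genes were higher and 3865 lower than with DMSO (31.1% and 28.7%), of which 536 and 221 by at least 2-fold. Helicon 4-neg gave 1403 higher and 1152 lower (10.4% and 8.55%), of which none and 3 by at least 2-fold. The 3 genes, named after their values were seen, were ID3, ID1 and RSRP1, an arginine- and serine-rich protein that averaged 31.5 ± 0.369 with Helicon 4, 15.7 ± 1.02 with Helicon 4-neg and 42.8 ± 1.26 with DMSO (SD, n = 3). Both contrasts use the same DMSO libraries and are given side by side only. Among the 16 feedback regulators 12 were lower and 3 higher with Helicon 4 than with DMSO, and 3 were lower with Helicon 4-neg than with DMSO. Those 3 were NOTUM, NKD2 and APCDD1, at -0.56, -0.29 and -0.12 log2. ASCL2 was also lower with Helicon 4-neg than with DMSO (-0.49, adjusted p = 0.00537), and CTNNB1 higher (0.24, adjusted p = 0.00560). Ribosomal protein genes were lower than with DMSO in 21 of 30 with Helicon 4 and in 24 of 30 with Helicon 4-neg.

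The same pair of compounds was compared at 1 and 3 µM for 48 h in other libraries. Calls numbered 2127 higher and 2711 lower at 1 µM (15.8% and 20.1%), 3496 and 3579 at 3 µM (25.9% and 26.6%) and 3603 and 3640 at 10 µM. With p-values adjusted over the 3 dose-matched comparisons together, 3550 genes were higher and 3593 lower at 10 µM. The genes called higher at both 10 and 3 µM numbered 2776, which is 77.0% of those at 10 µM and 79.4% of those at 3 µM. For lower genes the shared count was 2929, or 80.5% and 81.8%, and 12 genes were called in opposite directions. The difference between the compound effects at 10 and 3 µM was itself called for 39 genes upward and 55 downward, 0.697% of those tested (0.289% and 0.408%), and with median centring for 29 and 90.

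Among the named genes many had similar differences at 3 and 10 µM, and few were called as changing between them. WIF1 differed by -1.96, -3.24 and -3.47 log2 at 1, 3 and 10 µM. TNFRSF19 differed by -2.37, -3.21 and -3.22. AXIN2 differed by -1.08, -1.61 and -1.83, and its change between 3 and 10 µM was -0.21 (95% interval -0.37 to -0.057, adjusted p = 0.208). NKD1 was already at -1.84 at 1 µM, against -1.95 at 3 µM and -1.72 at 10 µM. For RNF43, LEF1 and ASCL2 the change from 3 to 10 µM was not called (adjusted p = 0.107, 0.334 and 0.138), and LEF1 was not called at 1 µM (adjusted p = 0.124). Their differences at 1, 3 and 10 µM were -0.18, -0.78 and -1.11 for RNF43, -0.16, -0.84 and -1.09 for LEF1, and -0.35, -1.09 and -1.61 for ASCL2. TAC3 rose by 3.52, 5.16 and 5.13. For APCDD1 the difference grew between the doses, with -1.47, -2.02 and -2.57 (adjusted p of the change from 3 to 10 µM = 2.22e-06). KRT39 grew likewise, with -0.59, -2.03 and -2.94 (adjusted p of the change = 3.78e-05).

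At 3 µM, where the level of each gene came from other libraries but the spread from the same fit of 21 libraries, several gene lists were split similarly. Feedback regulators were lower in 12 and higher in 3 of 16 (median -1.63), replication genes lower in 33 of 33 (-0.69) and cholesterol genes lower in 22 of 25 (-0.71). FOXO and quiescence genes were higher in 18 of 23 (0.78) and histone transcripts in 17 of 19 (1.29). Other lists were split differently. Ribosomal protein genes were called higher in 22 of 30 at 3 µM and in 5 at 10 µM. The β-catenin and destruction complex list had 4 rises and 4 falls at 3 µM (median -0.021), against 7 and 2 at 10 µM, and the other Wnt targets had 6 and 5 (median -0.029), against 9 and 5.

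**Figure D5:**
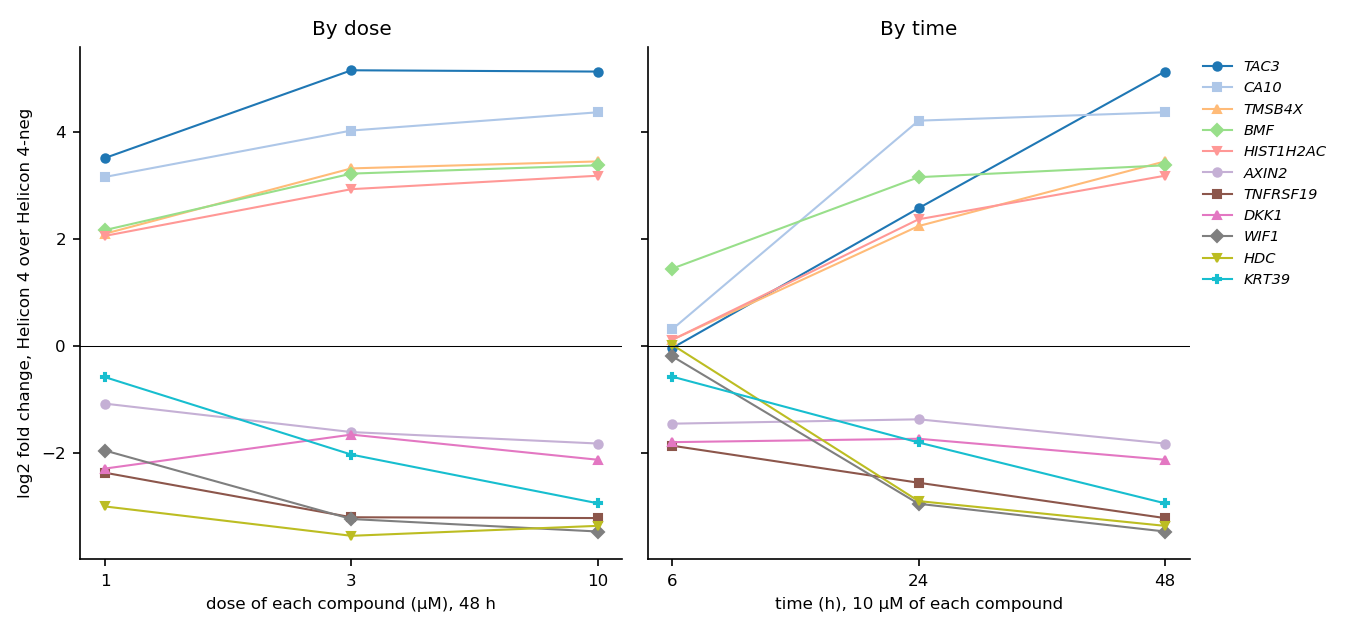
Log2 fold change of Helicon 4 over Helicon 4-neg for 11 named genes by dose at 48 h (left) and by time at 10 µM (right), each point from 3 libraries of each compound. AXIN2, TNFRSF19, DKK1 and BMF already differ at 6 h, whereas TAC3, TMSB4X, HDC and WIF1 lie near 0 at 6 h and far from it at 24 and 48 h.

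By time, in 1 fit of all 63 libraries, the compounds at 10 µM differed in 316 higher and 687 lower genes at 6 h (2.29% and 4.98% of 13782, together 7.28%). At 24 h they differed in 3459 and 3713 (25.1% and 26.9%, together 52.0%). The same fit gave 3739 higher and 3752 lower at 48 h, where the counts above came from the 21 libraries at 48 h. The change of the compound difference between 6 and 48 h was called for 2855 genes upward and 2744 downward (20.7% and 19.9%, together 40.6%), and between 24 and 48 h for 963 and 807 (6.99% and 5.86%, together 12.8%). Of the 686 genes lower at 6 h and tested in both fits, 438 were lower at 48 h and 56 higher. Of the 315 higher at 6 h, 202 were higher at 48 h and 88 lower.

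Feedback regulators differed in how far they had fallen by 6 h. AXIN2 differed by -1.45, -1.37 and -1.83 log2 at 6, 24 and 48 h, and TNFRSF19 by -1.87, -2.56 and -3.22. RNF43 stood at -1.03, -0.65 and -1.11, and DKK1 at -1.80, -1.74 and -2.13. WIF1, in contrast, differed by -0.19 at 6 h (adjusted p = 0.209) and by -2.95 at 24 h. NOTUM differed by -0.22 at 6 h, where it was called (adjusted p = 0.00946), and by -1.94 and -2.29 at 24 and 48 h. NKD2 (-0.45, -1.91 and -2.34) and APCDD1 (-1.21, -1.90 and -2.57) lay between WIF1 and AXIN2 at 6 h. The change between 6 and 48 h was called for WIF1 (adjusted p = 6.83e-28) and NOTUM (adjusted p = 5.00e-27). For ZNRF3 it was 0.024 (adjusted p = 0.896).

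Calls in the growth and histone lists came mostly after 6 h, as did those over all genes (7.28% at 6 h and 52.0% at 24 h). At 6 h none of the 33 replication genes was lower and 1 was higher (median 0.03), against 33 lower at 48 h. Of all genes 4.98% were lower and 2.29% higher at 6 h. Mitosis genes had 5 of 34 higher and none lower at 6 h, 16 lower and 2 higher at 24 h and 33 lower at 48 h. Histone transcripts had no gene higher and 1 lower at 6 h (median 0.08), and FOXO and quiescence genes had 5 higher and 1 lower of 23, where 2.29% of all genes were higher. CCNG2 was among the early ones, at 0.92 at 6 h and 1.99 at 24 h. BMF differed by 1.45 at 6 h (adjusted p = 3.31e-17), 3.16 at 24 h and 3.38 at 48 h. Feedback regulators already had 10 of 16 members lower at 6 h (median -0.55).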

How the data were processed

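The values as the authors deposited them are a normalized signal per gene and library, CPM over a scaling factor. Per the submitters' processing notes, GRCh38, edgeR 4.0.2, Subread 2.4.2 with featureCounts, STAR 2.7.7a and Trimmomatic 0.39 were used. Annotation, strand use and gene filter are not given in the sources used here. All values (100%) were whole multiples of 1 read within 0.01 read. Genes with at least 0.5 in at least 3 of the 21 libraries at 48 h (13478) were fitted with limma 3.58.1 in R 4.3.3 (trend, log2(value + 1), 1 coefficient per group). Times were compared in 1 fit of 63 libraries (13782 genes). P-values were two-sided and Benjamini-Hochberg adjusted over all genes, called below 0.05. Alternatives included edgeR 4.0.16 and DESeq2 1.42.0 on the recovered reads. Other alternatives changed the libraries fitted, scaling, filter, pseudocount, replicate block and library set terms. Tests were checked on simulated data that held no library sets, so that check does not cover their effect on the calls. The comparison and the 36 gene lists were chosen with earlier results of these data known. Named are the Wnt regulators, the 12 largest rises and falls with mean log2 of at least 3 and separate groups, the 4 members of each list with smallest p, and the 4 largest changes of the compound difference each way. Other list members named were chosen after their values were seen. Coordinates come from GENCODE 29. Some results for single genes are not reported here.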

Additional observations from a re-analysis of the deposited data

Results flagged for a closer look

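The difference between the compounds itself changed with dose or time in the following genes and counts, each by a test of that change in limma. Between 3 and 10 µM at 48 h it was called for 39 genes upward and 55 downward, between 6 and 48 h at 10 µM for 2855 upward and 2744 downward, and between 24 and 48 h for 963 upward and 807 downward. From 3 to 10 µM the log2 difference changed by 0.74 for MROH1, 0.73 for ECEL1, 0.63 for CRABP2, 0.58 for IFT122, -0.85 for PLK2, -0.91 for TNMD, -0.91 for KRT39 and -1.004 for LIX1. IFT122 was not called once the library sets were modelled (adjusted p = 0.0875). PLK2, a stress-induced kinase, had differences of opposite sign: it averaged 26.5 ± 1.09 with Helicon 4 and 41.4 ± 0.770 with Helicon 4-neg at 10 µM, and 49.98 ± 2.23 with Helicon 4 and 42.7 ± 1.80 with Helicon 4-neg at 3 µM (SD, n = 3 each). The log2 difference of MROH1 was 0.13 at 10 µM and -0.61 at 3 µM.

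From 6 to 48 h the change was 3.34 for TMSB4X, 3.07 for HIST1H2AC, 2.73 for TNMD, 2.71 for BCAM, -2.64 for FARS2, -2.96 for MEP1B, -3.28 for WIF1 and -3.39 for HDC. FARS2 averaged 40.9 ± 3.17 with Helicon 4 and 254 ± 7.48 with Helicon 4-neg at 48 h, and 246 ± 5.91 with Helicon 4 and 241 ± 5.93 with Helicon 4-neg at 6 h. From 24 to 48 h the change was 1.84 for ECEL1, 1.54 for BCAM, 1.51 for GATA2, 1.36 for HIST1H1C, -1.29 for NXPH1, -1.30 for MPP4, -1.44 for MEP1B and -1.62 for FOXL1. FOXL1, a forkhead factor, had differences of opposite sign: its log2 difference was 0.29 at 24 h and -1.32 at 48 h.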

How the results depend on the processing

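Both counts of the 10 µM comparison stayed within 1.5 times their main value in the 20 alternatives run, from 3206 to 3830 higher and from 3284 to 4023 lower. Leaving out single libraries gave 3232 to 3328 higher and 3284 to 3458 lower. edgeR called 3655 and 3555 genes on the recovered reads, DESeq2 3469 and 3603, and median centring 3252 and 4023. The replicate block gave 3544 and 3589. Residuals of same-numbered libraries correlated at 0.37, -0.27 and 0.38. The pair at -0.27 lay in different library sets and the others in the same set. These values follow the sets and so cannot show whether the replicate numbers mark a pairing. For the change from 3 to 10 µM, the 39 upward calls became 25 with a pseudocount of 0.1 and the 55 downward calls 90 with median centring, and the cause was not tested. Among 195 genes recomputed, no called gene reversed. Genes that lost their calls included KRT19, KRT20, CSNK1A1, DKK4, RPL10, RPL22, RPS9, PTPRC and ITGAM, each under at least 1 alternative, and CRABP2 and IFT122 with median centring (adjusted p = 0.0504 for each). Depth limits genes at a few reads, such as DKK4 and HNF4A.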
